A study of Mus musculus with 6 samples.

Results

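The subunits of NF-kappaB and the genes that restrain it were examined in 3 populations of cultured mouse bone marrow cells. The rule named 10 genes and took the probe sets of the deposited table that the array annotation gives to 1 of these genes alone, with the highest mean over the 6 arrays where a gene had several. It found 9 of the 10, each with 1 probe set, among 19938 genes tested: the subunit genes Nfkb2, Rel, Rela and Relb, the inhibitor genes Nfkbia, Nfkbib and Nfkbie, the atypical inhibitor gene Nfkbiz, and Tnfaip3. Nfkb1 is not analysed here.

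Marrow of C57BL/6J mice aged 6 to 10 weeks and labelled male was cultured for 7 days, and 300 ng of total RNA from each sorted sample was hybridised to an Affymetrix array, with 2 arrays per population. GM-CSF, a myeloid growth factor, was added at 25 ng/ml for GM-BMDC, which the labels call dendritic cells, and for GM-BMM, called macrophages. The sort gate was MHCIIhighF4/80low for GM-BMDC and MHCIIlowF4/80high for GM-BMM. M-BMM, also called macrophages, were grown with 20% L cell conditioned medium, which supplies M-CSF but is not a purified factor, and were sorted as cells positive for CD11b and for the macrophage marker of the other gates, which Adgre1 encodes, so GM-BMM and M-BMM differed in both the culture and the gate. No genotype or treatment beyond these is given, and the labels call the arrays of a population biological replicates without naming animals or cultures, so p-values measure the spread between these arrays. Each value is a log2 signal made by the authors with RMA, a method that corrects background, equalises the arrays' distributions and summarises each probe set.

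NF-kappaB is a family of transcription factors that act as dimers and that switch on immune genes. In resting cells the dimers are held in the cytoplasm by inhibitor proteins, the IkappaBs. In the canonical arm, a kinase complex marks the inhibitors for destruction, and dimers with RelA or c-Rel, the products of Rela and Rel, enter the nucleus. In the non-canonical arm, receptors such as CD40 stabilise the kinase NIK, encoded by Map3k14, which drives the processing of the Nfkb2 precursor into a partner of RelB. Several genes of the family are themselves textbook targets of NF-kappaB, and RelB and c-Rel are known for their roles in dendritic cells. RNA levels do not show whether a dimer is in the nucleus.

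Promoter windows were examined for the kappaB consensus, the sequence that these dimers bind, because the family is known for feedback on its own genes. The windows run from 250 bases before to 50 bases after an annotated start (RefSeq, GRCm38.p6) and were matched by symbol for 7 of the 9 members, in 10 windows, with Relb and Nfkbiz the other two. A match of the consensus on either strand was present for 5 of the 7, Nfkb2, Rel, Nfkbia, Nfkbie and Tnfaip3, against 5.14% of the 27025 genes with such windows and 4.51% of all 32851 windows. The windows of Rela and Nfkbib held none. A looser form of the motif, with only its outer G and C letters fixed, matched 6 of the 7 members and 53.5% of all genes, a much smaller contrast. The 150 bases before the start are shown for the 5 members with a match, in the gene's direction and with the matched bases, on either strand and merged where they overlap, in capitals:
Nfkb2: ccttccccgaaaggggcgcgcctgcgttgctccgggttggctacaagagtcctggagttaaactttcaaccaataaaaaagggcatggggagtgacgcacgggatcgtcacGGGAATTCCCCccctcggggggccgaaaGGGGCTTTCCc
Rel: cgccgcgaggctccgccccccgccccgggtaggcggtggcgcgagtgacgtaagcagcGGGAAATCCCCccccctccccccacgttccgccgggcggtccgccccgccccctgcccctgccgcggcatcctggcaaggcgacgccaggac
Nfkbia: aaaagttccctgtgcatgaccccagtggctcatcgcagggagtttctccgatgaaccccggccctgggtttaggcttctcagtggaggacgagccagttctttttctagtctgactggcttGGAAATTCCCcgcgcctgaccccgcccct
Nfkbie: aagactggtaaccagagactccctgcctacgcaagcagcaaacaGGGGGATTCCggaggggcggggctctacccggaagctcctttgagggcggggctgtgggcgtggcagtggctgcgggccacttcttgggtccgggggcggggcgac
Tnfaip3: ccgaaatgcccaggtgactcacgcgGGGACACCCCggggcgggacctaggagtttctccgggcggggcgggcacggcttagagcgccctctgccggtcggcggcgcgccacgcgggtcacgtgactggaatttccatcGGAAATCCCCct
They lie at chr19:46304587-46304736 (plus strand, the first of 3 annotated starts of Nfkb2), chr11:23770970-23771119 (minus, Rel), chr12:55492648-55492797 (minus, Nfkbia), chr17:45555550-45555699 (plus, Nfkbie) and chr10:19015411-19015560 (minus, a start of Tnfaip3 whose other window held no match). The match began 29 bases before the start in Nfkbia, 106 in Nfkbie and 92 in Rel. Nfkb2 had stretches that began 39 and 11 bases before the start, and Tnfaip3 125 and 12. The windows of the other annotated starts of Nfkb2, not shown, held matches as well. A match is a description of letters and does not show binding in these cells, which was not measured.

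The arrays were checked against their labels first. The 10 dendritic cell markers listed were all higher in GM-BMDC than in both other populations, and their mean log2 signal was 9.88 and 9.71 in GM-BMDC, 7.69 and 7.44 in GM-BMM and 6.43 and 6.42 in M-BMM. The 9 measured macrophage markers had means of 9.65 and 10.43, 11.28 and 11.29, and 10.92 and 10.83 in the same order. Sex-linked genes went against the label male. Xist lay between 10.68 and 11.66 in both GM-BMDC arrays and in GM-BMM replicate 1, against 4.53 to 4.93 in the others, and the Y-linked genes Eif2s3y, Uty and Kdm5d were low (3.58 to 4.90) in the GM-BMDC and GM-BMM arrays numbered 1. Eif2s3y, for example, was 3.94 and 8.80 in GM-BMDC and 3.66 and 9.10 in GM-BMM, so the replicates of each GM-CSF population were not the same material, while for M-BMM the spread may be technical. The calls of the members are also given without both arrays numbered 1. That fit leaves 1 array in each GM-CSF population and assumes that it varies like M-BMM. The GM-BMDC array it keeps had both Xist (10.68) and Eif2s3y (8.80) high, while Xist was at most 4.93 in the other arrays kept. The sex-linked signal therefore still differed between GM-BMDC and the other populations in that fit. Among markers of other cells, 3 of the 6 measured B lymphocyte genes, Cd79a, Ms4a1 and Ighm, were higher in GM-BMDC than in GM-BMM and 0 lower, and against M-BMM Cd79a and Ms4a1 were higher and Cd79b lower. The B lymphocyte list had mean log2 signals of 7.04 and 6.40 in GM-BMDC, 5.70 and 5.86 in GM-BMM, and 6.31 and 6.41 in M-BMM. Cd79a had means of 6.69, 4.24 and 4.61, the last 2 under 5.04, the 25th percentile of all values, below which a value is called low here, whereas Cd79b had means of 7.91, 7.82 and 10.18. Of the lists for T and NK lymphocytes, mast cells and basophils, neutrophils and fibroblasts, 1 of 7, 1 of 7, 0 of 10 and 0 of 6 genes were higher in GM-BMDC than in GM-BMM, namely Cd8a at 2.20-fold and Kit at 3.40-fold, and 0, 0, 1 and 1 were lower, namely Csf3r at 8.01-fold and Dcn at 3.17-fold. Against M-BMM, GM-BMDC had Cd8a, Kit and Gata2 higher and Cd4 and Csf3r lower. These genes, chosen after their values were seen, differed in GM-BMDC in both directions, and their part in the GM-BMDC results below was not tested. The genes of the sort gates followed the gates: the MHCII genes H2-Aa, H2-Ab1 and H2-Eb1 lay between 13.03 and 13.17 in GM-BMDC, 9.78 and 11.45 in GM-BMM and 5.81 and 7.70 in M-BMM. Adgre1 measured 9.39 and 10.91 in GM-BMDC and at least 12.32 in every macrophage array, and Itgam, which encodes CD11b, 9.67 and 10.75 against at least 11.77. None of the group means of the 9 members was low.

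Over the 9 members, GM-BMDC had the highest mean for 7, as it did for 37.6% of all genes, and the order GM-BMDC above GM-BMM above M-BMM held for 6, against 20.1% of all genes. In limma, with a Benjamini-Hochberg adjusted p below 0.05 over all genes as the call, 3 members were higher and 0 lower in GM-BMDC than in GM-BMM, against 4.69% and 5.74% of all genes (10.4% in either direction), with 5 and 1 at an unadjusted p below that value, against 10.7% and 12.6% of all genes. For GM-BMDC and M-BMM, 6 members were higher in GM-BMDC and 1 was lower, against 7.76% and 8.9% of all genes (16.7% in either direction), with 7 and 1 at the limma p before adjustment, against 12.6% and 15.6%. For GM-BMM and M-BMM, 1 member was higher in GM-BMM and 0 were lower, against 3.62% and 2.57% (6.19% in either direction). At the limma p before adjustment there were 2 and 0, against 9.39% and 9.84%. These counts of calls for GM-BMM and M-BMM are close to the share of all genes. The median log2 difference of the 9 was 0.51, 0.91 and 0.35 in these 3 comparisons, where that of all genes was 0.02, 0.00 and -0.02. The arrays of the groups compared did not overlap for 7, 8 and 7 of the 9, against 51.3%, 56.4% and 49.8% of all genes. Both arrays of the population named first lay above both of the other for 6, 7 and 6 members. That held for 26.7%, 26.6% and 22.6% of all genes. The reverse held for 1 member in each comparison, against 24.6%, 29.8% and 27.2% of all genes. The 3 comparisons share arrays, so their counts are not independent.

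**Figure D1:**
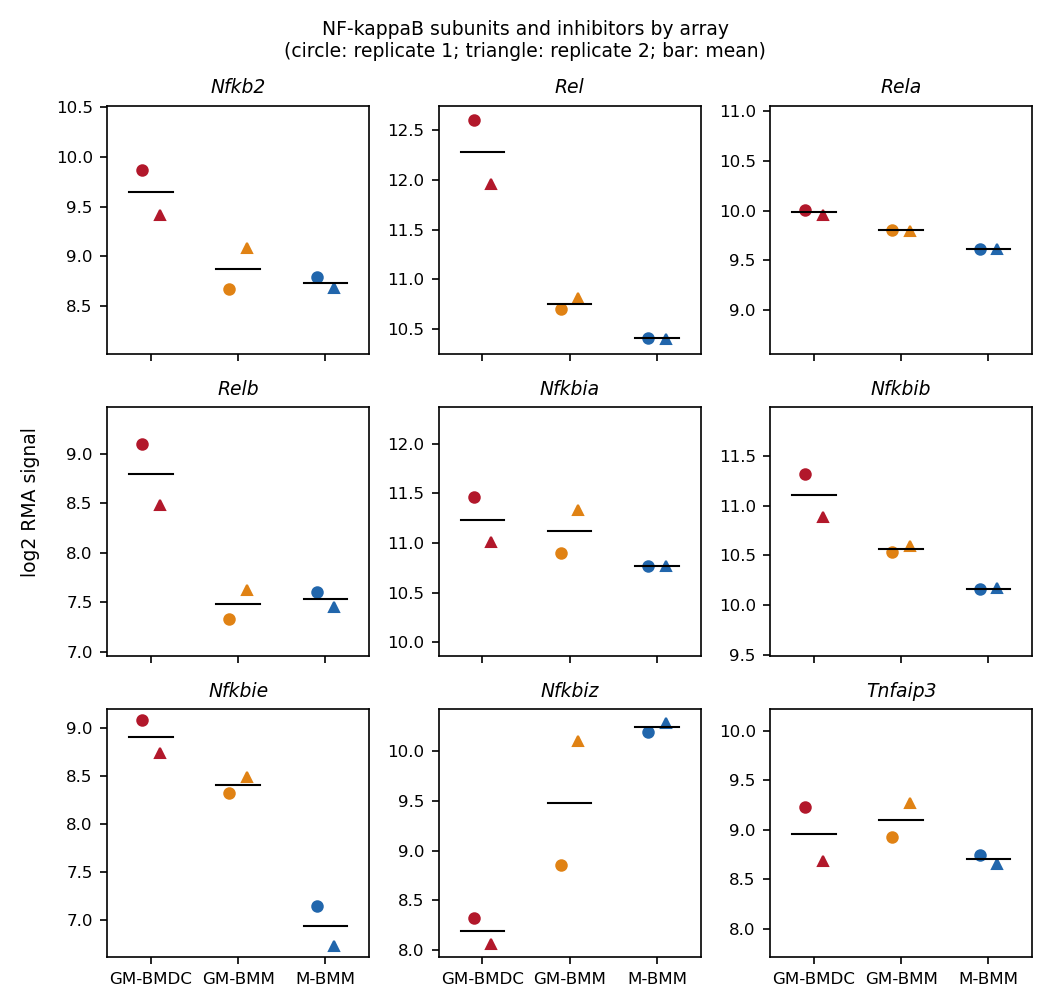
Log2 RMA signal (vertical axis, its range set for each gene) of the 9 members in the 3 populations (horizontal axis), with replicate 1 as a circle, replicate 2 as a triangle and the mean of 2 arrays as a bar. Rel and Relb stand highest in GM-BMDC, Nfkbie is lowest in M-BMM, and Nfkbiz runs the other way, from 8.06 to 8.32 in GM-BMDC to 10.20 to 10.29 in M-BMM.

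Among the subunits, Rel and Relb had the largest excess in GM-BMDC. Rel, whose product c-Rel is a transactivating subunit known from lymphocytes and dendritic cells, measured 12.60 and 11.96 in GM-BMDC, 10.70 and 10.81 in GM-BMM and 10.41 and 10.40 in M-BMM. Both GM-BMDC arrays lay above all 4 macrophage arrays, and both GM-BMM arrays lay above both M-BMM arrays by a small margin. Rel was 2.86-fold higher in GM-BMDC than in GM-BMM (log2 difference 1.52 ± 0.20, standard error; n = 2 arrays per group here and below; limma adjusted p = 0.00374) and 3.66-fold higher than in M-BMM (1.87 ± 0.20, limma adjusted p = 0.00089). Between GM-BMM and M-BMM the log2 difference of 0.35 did not pass (95% interval -0.11 to 0.82, limma adjusted p = 0.416). Without the GM-CSF arrays numbered 1, the differences of GM-BMDC were 1.14 and 1.55, both called. In RNA of a sorted population, more cells that express a gene and more RNA per cell cannot be told apart, for this and every result below.

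Relb encodes the partner of processed Nfkb2 in the non-canonical arm. It measured 9.10 and 8.48 in GM-BMDC, 7.33 and 7.63 in GM-BMM and 7.61 and 7.45 in M-BMM. The GM-BMDC arrays again stood above all others, while those of the macrophage populations overlapped. Relb was 2.48-fold higher in GM-BMDC than in GM-BMM (1.31 ± 0.21, limma adjusted p = 0.00887) and 2.40-fold higher than in M-BMM (1.26 ± 0.21, limma adjusted p = 0.00656). The macrophage populations differed by -0.05 (95% interval -0.55 to 0.45), an interval that reaches a 1.46-fold difference. Without the GM-CSF arrays numbered 1, the excess of GM-BMDC was 0.85 over GM-BMM and 0.95 over M-BMM, both called. Leaving out M-BMM replicate 1 or replicate 2 ended the call against M-BMM (limma adjusted p = 0.0536 and 0.0704).

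Nfkb2, which encodes a precursor that acts as an inhibitor until it is processed into a subunit, was raised less. Its signal was 9.87 and 9.42 in GM-BMDC, 8.67 and 9.08 in GM-BMM and 8.79 and 8.68 in M-BMM. The GM-BMDC arrays were the highest of the 6, and the M-BMM arrays lay within the range of GM-BMM. Nfkb2 was 1.70-fold higher in GM-BMDC than in GM-BMM (0.77 ± 0.19, limma adjusted p = 0.046) and 1.88-fold higher than in M-BMM (0.91 ± 0.19, limma adjusted p = 0.017), and the GM-BMM and M-BMM means differed by 0.14 (95% interval -0.30 to 0.59). The call against GM-BMM was lost without GM-BMDC replicate 1 (0.54), without GM-BMM replicate 1 (0.56), without either M-BMM array (0.77, limma adjusted p = 0.108) and without the GM-CSF arrays numbered 1 (0.34, limma adjusted p = 0.307). The call against M-BMM was lost without GM-BMDC replicate 1 (0.69) and without M-BMM replicate 1 (0.96) or replicate 2 (0.86), and was kept without the GM-CSF arrays numbered 1 (0.69, limma adjusted p = 0.0142).

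Rela, the most widely used transactivating subunit of the canonical arm, had the narrowest range of group means of the 9, 0.38. It measured 10.01 and 9.96 in GM-BMDC, 9.81 and 9.80 in GM-BMM and 9.61 and 9.61 in M-BMM. The 3 populations did not overlap, with steps of 0.18 and 0.19 between neighbouring means and replicates within 0.05 of each other. Only the difference of the outer populations passed, at 1.30-fold (0.38 ± 0.10, limma adjusted p = 0.0479), and it missed the threshold without any 1 of the 6 arrays, where adjusted p ran from 0.0656 to 0.19, and without the GM-CSF arrays numbered 1 (0.35, limma adjusted p = 0.148). Against GM-BMM the 95% interval of the GM-BMDC difference ran from -0.06 to 0.43 (limma adjusted p = 0.363), and its upper end is a 1.35-fold difference, below the lower ends of 2.08-fold for Rel and 1.76-fold for Relb.

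**Figure D2:**
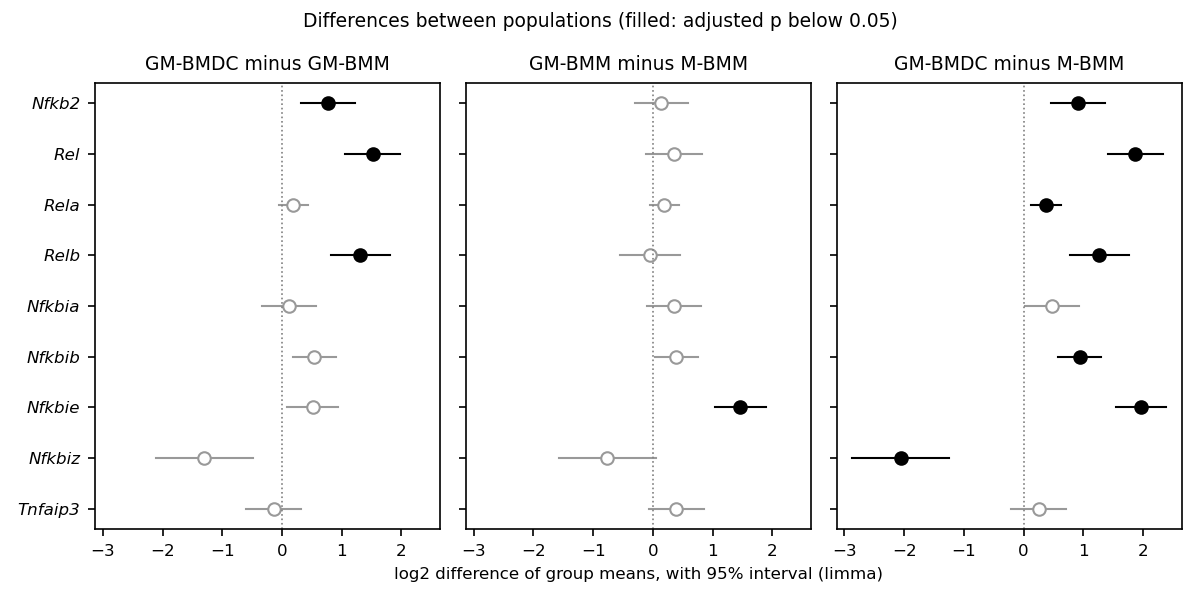
Log2 difference of group means (horizontal axis) with its 95% interval from limma for the 9 members in the 3 comparisons, filled where the adjusted p was below 0.05. In GM-BMDC minus GM-BMM the filled points are Nfkb2, Rel and Relb, in GM-BMM minus M-BMM only Nfkbie, and in GM-BMDC minus M-BMM all but Nfkbia and Tnfaip3, with Nfkbiz below 0.

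The inhibitors did not follow a single pattern. Nfkbie, which encodes IkappaB epsilon, an inhibitor noted for holding dimers that contain c-Rel, separated the GM-CSF populations from M-BMM. Its signal was 9.08 and 8.74 in GM-BMDC, 8.32 and 8.49 in GM-BMM and 7.15 and 6.73 in M-BMM. All 4 GM-CSF arrays lay above both M-BMM arrays, by more than 1 log2 unit. Nfkbie was 2.76-fold higher in GM-BMM than in M-BMM (1.46 ± 0.18, limma adjusted p = 0.00401), the only member called between these populations, and 3.92-fold higher in GM-BMDC than in M-BMM (1.97 ± 0.18, limma adjusted p = 0.000508). The GM-BMDC and GM-BMM arrays did not overlap either, but their difference of 0.51 (95% interval 0.08 to 0.93) did not pass after adjustment (limma adjusted p = 0.141). Without the GM-CSF arrays numbered 1 the differences from M-BMM were 1.55 and 1.80, both called.

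Nfkbib encodes IkappaB beta, an inhibitor that is resynthesised slowly after a stimulus. It measured 11.32 and 10.89 in GM-BMDC, 10.53 and 10.59 in GM-BMM and 10.16 and 10.17 in M-BMM, so the populations formed 3 steps with no overlap. GM-BMDC exceeded M-BMM by 1.91-fold (0.94 ± 0.15, limma adjusted p = 0.00621). The smaller steps did not pass: 0.54 between GM-BMDC and GM-BMM (95% interval 0.18 to 0.91, limma adjusted p = 0.0716) and 0.39 between GM-BMM and M-BMM (0.03 to 0.76, limma adjusted p = 0.22). The call against M-BMM was lost without M-BMM replicate 1 or replicate 2 (limma adjusted p = 0.0634 and 0.0582) and kept without the GM-CSF arrays numbered 1 (0.72, limma adjusted p = 0.0103). The difference from GM-BMM turned on the GM-BMDC array: it was 0.76 and called without replicate 2 (limma adjusted p = 0.0162), 0.32 and not called without replicate 1 (limma adjusted p = 0.272), and 0.30 without the GM-CSF arrays numbered 1.

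Nfkbia encodes IkappaB alpha, the inhibitor whose rapid resynthesis ends a canonical response and whose promoter stretch above carries a match close to the start. It was 11.46 and 11.01 in GM-BMDC, 10.90 and 11.33 in GM-BMM and 10.77 and 10.77 in M-BMM. The 2 GM-CSF populations overlapped, and all 4 of their arrays lay above M-BMM. None of the 3 comparisons passed: the log2 difference was 0.12 between GM-BMDC and GM-BMM (95% interval -0.33 to 0.57), 0.47 between GM-BMDC and M-BMM (0.02 to 0.92, limma adjusted p = 0.159) and 0.35 between GM-BMM and M-BMM (-0.10 to 0.80). The difference from M-BMM was called for GM-BMM without the GM-CSF arrays numbered 1 (0.57, limma adjusted p = 0.0491) and for GM-BMDC without those numbered 2 (0.69, limma adjusted p = 0.01).

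Tnfaip3 encodes A20, an enzyme that edits ubiquitin chains and shuts off signalling upstream of the kinase complex. It measured 9.23 and 8.69 in GM-BMDC, 8.93 and 9.27 in GM-BMM and 8.75 and 8.66 in M-BMM. The GM-BMDC arrays spanned nearly the whole range of the other populations, and no comparison passed. The 95% intervals of its log2 differences ran from -0.60 to 0.32 for GM-BMDC minus GM-BMM, from -0.07 to 0.86 for GM-BMM minus M-BMM and from -0.21 to 0.71 for GM-BMDC minus M-BMM, and their far ends are 1.52-fold, 1.81-fold and 1.64-fold. Without the GM-CSF arrays numbered 2, GM-BMDC exceeded M-BMM by 0.52 and the difference was called (limma adjusted p = 0.0365), and without those numbered 1 it was -0.01.

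Nfkbiz, which encodes the nuclear protein IkappaB zeta, needed for a second wave of cytokine genes such as Il6 in macrophages, was the member that ran against the others. Its signal was 8.32 and 8.06 in GM-BMDC, 8.86 and 10.10 in GM-BMM and 10.20 and 10.29 in M-BMM. M-BMM was highest and GM-BMDC lowest with no overlap, and the GM-BMM arrays lay 1.24 apart, the widest replicate gap of any member, with replicate 2 close to M-BMM and replicate 1 closer to GM-BMDC. Nfkbiz was 4.17-fold lower in GM-BMDC than in M-BMM (-2.06 ± 0.35, limma adjusted p = 0.00675). It was also lower than in GM-BMM by a log2 difference of -1.30 that did not pass (95% interval -2.11 to -0.48, limma adjusted p = 0.0587), and GM-BMM minus M-BMM gave -0.76 (-1.58 to 0.05, limma adjusted p = 0.296). Which GM-BMM array was used decided both: without replicate 1 the difference of GM-BMDC from GM-BMM was -1.92 and called (limma adjusted p = 0.00111) and without replicate 2 it was -0.68, while without replicate 2 that of GM-BMM from M-BMM was -1.38 and called (limma adjusted p = 0.00421) and without replicate 1 it was -0.14. The call against M-BMM was lost without M-BMM replicate 1 or replicate 2 (limma adjusted p = 0.0659 and 0.0693) and kept without the GM-CSF arrays numbered 1 (-2.19).

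Nfkbiz had the widest range of group means of the 9 members, 2.06. The 5 genes most like it over the 6 arrays, among 1880 whose group means ranged over at least 1 log2 unit, were the palmitoyltransferase family gene Zdhhc6, the nucleoside transporter gene Slc28a2, the cytokine gene Il10, the receptor gene Gpr31b and the zinc finger gene Zfp811, with Pearson r from 0.9903 to 0.9967. Il10, for example, measured 4.42 and 4.10 in GM-BMDC, 5.34 and 7.77 in GM-BMM and 8.58 and 8.68 in M-BMM, with GM-BMM replicate 2 above replicate 1 as for Nfkbiz but by a wider gap, and with both GM-BMDC values under 5.04. As 70 of the 1880 genes had r above 0.95 and 6 arrays of 3 populations hold few independent points, this is a description of a shared pattern only.

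Between the replicates of each population most members shifted in 1 direction. In GM-BMDC, replicate 2 was below replicate 1 for 9 of the 9 members, by 0.05 (Rela) to 0.64 (Rel), against 53.0% of all genes. In GM-BMM, replicate 2 was above replicate 1 for 8 of the 9, the exception being Rela, against 55.7% of all genes. The macrophage marker mean was higher, and the dendritic cell and B lymphocyte marker means were lower, in GM-BMDC replicate 2 than in replicate 1. In GM-BMM the dendritic cell marker mean was lower in replicate 2 than in replicate 1 (7.44 against 7.69). The B lymphocyte mean was higher (5.86 against 5.70) and the macrophage mean nearly the same (11.29 against 11.28). The MHCII genes were higher in GM-BMM replicate 2, H2-Ab1 for example at 11.27 against 10.08. The part of these in the member values was not tested. In M-BMM, replicate 2 was below replicate 1 for 7 of the 9, against 50.9% of all genes. The M-BMM replicates lay within 0.16 of each other for 8 of the 9 members and 0.42 apart for Nfkbie.

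**Figure D3:**
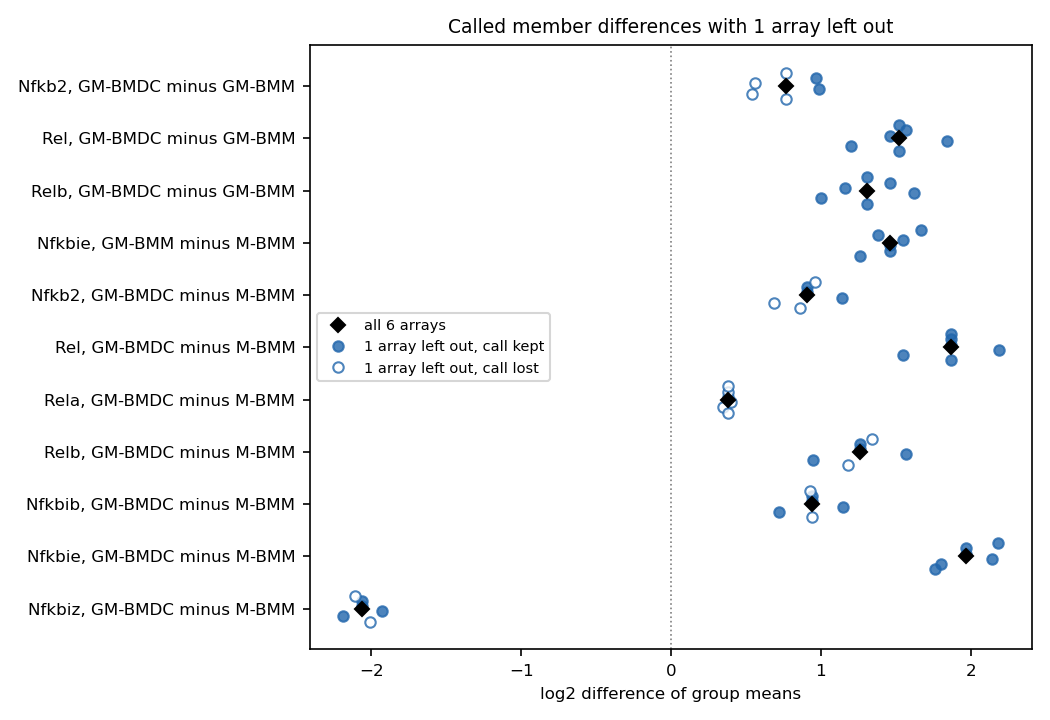
Log2 difference of group means (horizontal axis) for the 11 member differences that were called, with all 6 arrays (diamond) and with each array left out in turn (circles, filled where the adjusted p stayed below 0.05). The circles of Rel, of Nfkbie and of Relb against GM-BMM are all filled, and those of Rela are all open.

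Of the 11 called member differences, 5 were called under every one of the 18 alternatives run: Rel in both GM-BMDC comparisons, Relb in GM-BMDC against GM-BMM, and Nfkbie in both comparisons with M-BMM. The alternatives overlap, and the mean of probe sets could not change the values of members with 1 probe set each. In GM-BMDC against M-BMM only Rel and Nfkbie remained called, 2 in place of 7, when M-BMM replicate 1 or M-BMM replicate 2 was left out, and the differences themselves then ran from 1.18 to 1.34 for Relb and from -2.11 to -2.01 for Nfkbiz. Without the GM-CSF arrays numbered 2 the count was 8.

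The remaining IkappaB family genes included another that was higher in both GM-CSF populations than in M-BMM. Nfkbid, which encodes a nuclear IkappaB, measured 8.11 and 7.84 in GM-BMDC, 7.86 and 7.99 in GM-BMM and 7.00 and 6.91 in M-BMM. It was 1.96-fold higher in GM-BMM than in M-BMM (0.97 ± 0.13, limma adjusted p = 0.00642) and 2.03-fold higher in GM-BMDC than in M-BMM (1.02 ± 0.13, limma adjusted p = 0.00219), as Nfkbie was. Bcl3, another nuclear IkappaB gene, lay between 8.77 and 9.61 and Nfkbil1 between 7.40 and 7.65, and neither was called in any comparison.

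Genes of the non-canonical arm were measured for 13 of the 15 listed. In GM-BMDC against GM-BMM, 4 were higher, 1 lower and 8 were not called, where 4.69% of all genes were higher and 5.74% lower. When set against M-BMM, 4 were higher, 2 lower and 7 not called, where 7.76% of all genes were higher and 8.9% lower. The median log2 difference of the list was 0.19 and 0.14. The kinase gene Map3k14 measured 10.00 and 9.13 in GM-BMDC, 7.05 and 7.11 in GM-BMM and 7.28 and 7.24 in M-BMM. Both GM-BMDC arrays lay above all others, as for Relb and Nfkb2. It was 5.57-fold higher in GM-BMDC than in GM-BMM (2.48 ± 0.25, limma adjusted p = 0.00126) and 4.94-fold higher than in M-BMM (2.30 ± 0.25, limma adjusted p = 0.00101). The receptor gene Cd40 was also highest in GM-BMDC, 3.51-fold (1.81 ± 0.33, limma adjusted p = 0.0137) and 4.72-fold (2.24 ± 0.33, limma adjusted p = 0.00359) above GM-BMM and M-BMM. Birc2, whose product takes part in the degradation of NIK, was 2.32-fold higher in GM-BMDC than in M-BMM (1.22 ± 0.17, limma adjusted p = 0.00292). It was also 2.69-fold higher in GM-BMDC than in GM-BMM (1.43 ± 0.17, limma adjusted p = 0.00248). Tnfrsf13c, the receptor for the survival factor BAFF and best known from B lymphocytes, was 2.75-fold higher in GM-BMDC than in GM-BMM (1.46 ± 0.22, limma adjusted p = 0.00702), beside the B lymphocyte markers given above. Against M-BMM it was 2.29-fold higher (1.20 ± 0.22, limma adjusted p = 0.0101). Lower in GM-BMDC were Tnfrsf1b, a receptor for TNF, at 2.62-fold below GM-BMM (-1.39 ± 0.14, limma adjusted p = 0.00107), and Ltb, a ligand of the arm, at 1.72-fold below M-BMM (-0.78 ± 0.15, limma adjusted p = 0.012). Ltbr, the receptor of that ligand, was 1.44-fold below M-BMM (-0.53 ± 0.12, limma adjusted p = 0.0241). Between GM-BMM and M-BMM, 1 gene of the list was higher in GM-BMM, Tnfrsf1b at 1.92-fold, and 1 lower, Ltb at 2.20-fold. Of all genes, 3.62% were higher and 2.57% lower there.

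**Figure D4:**
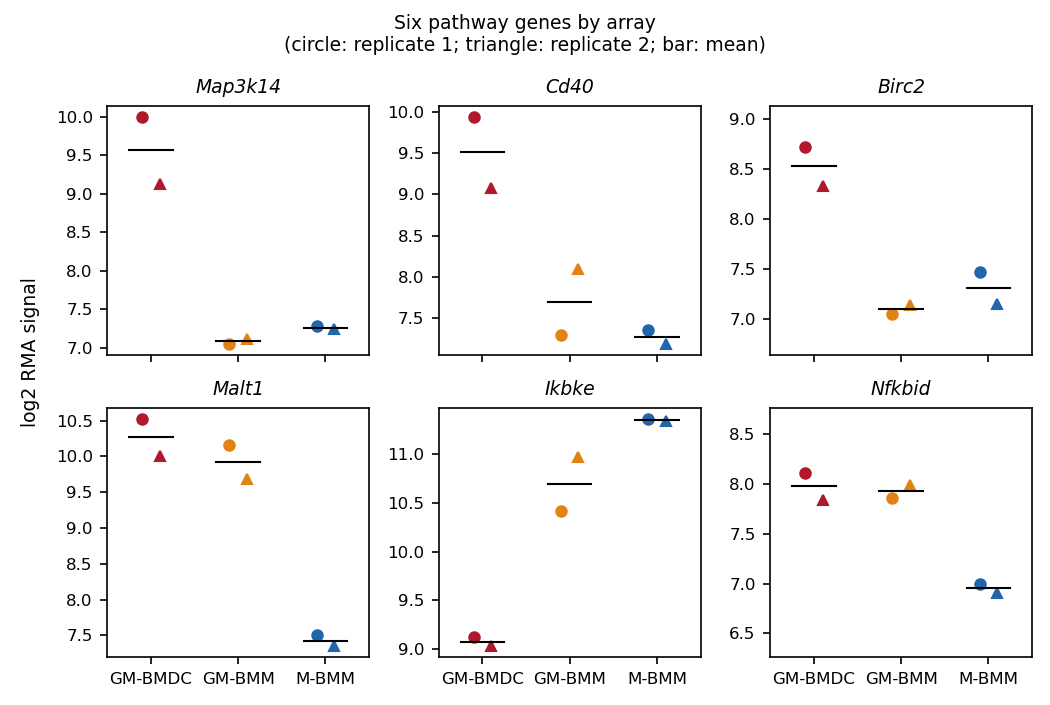
Log2 RMA signal (vertical axis, its range set for each gene) of 6 genes upstream of or related to the members in the 3 populations (horizontal axis), with replicate 1 as a circle, replicate 2 as a triangle and the mean as a bar. Map3k14, Cd40 and Birc2 stand highest in GM-BMDC, Malt1 and Nfkbid are high in both GM-CSF populations, and Ikbke is lowest in GM-BMDC.

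Of the canonical kinases and adaptors, 18 of 21 were measured. In GM-BMDC against GM-BMM 2 were higher, 2 lower and 14 not called. The counts were 2, 0 and 16 in GM-BMM compared with M-BMM, and 5, 1 and 12 in GM-BMDC against M-BMM. Of all genes, 10.4%, 6.19% and 16.7% were called in either direction in these comparisons. Malt1, a scaffold and protease that carries signals of lectin and antigen receptors, had the largest difference of the list. It measured 10.52 and 10.01 in GM-BMDC, 10.16 and 9.69 in GM-BMM and 7.50 and 7.35 in M-BMM. Compared with M-BMM, it was 7.15-fold higher in GM-BMDC (2.84 ± 0.21, limma adjusted p = 0.000236) and 5.64-fold higher in GM-BMM (2.49 ± 0.21, limma adjusted p = 0.000706). The adaptor gene Traf5 fell in steps from GM-BMDC to M-BMM, with means of 8.78 ± 0.23 (SD, n = 2), 7.75 ± 0.33 and 6.77 ± 0.14, all 3 comparisons being called. Traf6, an adaptor of Toll-like receptors, was 1.90-fold higher in GM-BMDC than in M-BMM (0.93 ± 0.21, limma adjusted p = 0.0239). Ikbke, a kinase related to the core complex and active in interferon responses, ran the other way, with 9.12 and 9.03 in GM-BMDC, 10.42 and 10.97 in GM-BMM and 11.36 and 11.34 in M-BMM, and was 4.85-fold lower in GM-BMDC than in M-BMM (-2.28 ± 0.18, limma adjusted p = 0.000269). Within the core kinase complex, Ikbkb, a catalytic subunit, was 1.40-fold higher (0.49 ± 0.12, limma adjusted p = 0.0459) and Ikbkg, the scaffold subunit, 1.37-fold lower (-0.45 ± 0.10, limma adjusted p = 0.0345) in GM-BMDC than in GM-BMM.

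Genes that write, read or erase ubiquitin in the pathway were measured for 19 of the 20 listed. In GM-BMDC against GM-BMM 1 was higher, 4 lower and 14 not called, where 10.4% of all genes were called in either direction. Against M-BMM 3 were higher, 7 lower and 9 not called, where that share was 16.7%. The medians of the list were -0.11 and -0.35. The partners of A20 did not move together. Against M-BMM, Tnip3 was 1.95-fold higher in GM-BMDC (0.96 ± 0.20, limma adjusted p = 0.0165) and Tnip1 1.91-fold lower (-0.93 ± 0.16, limma adjusted p = 0.00786). Tnip3 was also 2.21-fold higher in GM-BMDC than in GM-BMM (1.14 ± 0.20, limma adjusted p = 0.0124). N4bp1, a suppressor of NF-kappaB signalling, was 2.56-fold lower in GM-BMDC than in GM-BMM (-1.36 ± 0.12, limma adjusted p = 0.000688). Usp18, which removes the ubiquitin-like ISG15, was lower by 2.37-fold (-1.25 ± 0.16, limma adjusted p = 0.00311) and Zc3h12a, an RNase that degrades cytokine transcripts, by 1.91-fold (-0.93 ± 0.17, limma adjusted p = 0.0154) in the same comparison. Higher in GM-BMDC than in M-BMM beside Tnip3 were Otud7b, a deubiquitinase, at 1.56-fold (limma adjusted p = 0.0214) and Tnip2 at 1.52-fold (limma adjusted p = 0.0385). Among the 7 lower than in M-BMM, the largest differences after Tnip1 were those of Usp18 at 1.74-fold (limma adjusted p = 0.013) and N4bp1 at 1.70-fold (limma adjusted p = 0.00453). Between GM-BMM and M-BMM, 1 gene of the list was higher in GM-BMM, N4bp1 at 1.51-fold. In the same comparison 1 was lower, Fbxw11, which recognises marked inhibitors for destruction, at 1.46-fold. The share of all genes called there in either direction was 6.19%.

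Genes listed here as targets of NF-kappaB, 40 measured of 43, were called in both directions. The list was not tested for dependence on NF-kappaB, and its gene Ccr7 is also among the dendritic cell markers. In GM-BMDC against GM-BMM 12 were higher, 13 lower and 15 not called, where 4.69% of all genes were higher and 5.74% lower. The median log2 difference of the list was -0.05. Among the lower were inflammatory cytokines, with Il1a 8.14-fold (-3.03 ± 0.35, limma adjusted p = 0.0022), Il1b 5.63-fold (-2.49 ± 0.12, limma adjusted p = 5.64e-05) and Cxcl2, which attracts neutrophils, 5.70-fold (-2.51 ± 0.22, limma adjusted p = 0.000734) below GM-BMM, and the largest excesses were those of Ccl22, a chemokine of dendritic cells, Fscn1, which bundles actin, and Ccr7, which guides migration to lymph nodes (log2 differences 5.26, 4.99 and 4.48). Against M-BMM, GM-BMDC had 15 higher, 6 lower and 19 not called, where 7.76% of all genes were higher and 8.9% lower. Tnf was 3.57-fold (-1.84 ± 0.21, limma adjusted p = 0.00138) and the mitochondrial enzyme gene Sod2 2.92-fold (-1.55 ± 0.13, limma adjusted p = 0.000365) lower. Ebi3, a subunit of interleukin dimers, was 2.67-fold lower. In GM-BMM against M-BMM 15 were higher, 4 lower and 21 not called, where 3.62% of all genes were higher and 2.57% lower. The median of the list was 0.43. Il1a was 17.8-fold higher there (4.15 ± 0.35, limma adjusted p = 0.000701) and the chemokine gene Ccl5 9.57-fold. Il6 was higher in GM-BMM with a mean of 8.78 (limma adjusted p = 0.000568), and as its mean of 4.98 in M-BMM was low, no fold is given. Cd83, a surface marker of maturation, was 2.98-fold lower (-1.58 ± 0.23, limma adjusted p = 0.00828), followed by Marcks at 2.59-fold and Ebi3 at 2.13-fold.

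The differences taken for these pathway lists and for Nfkbid by the rule given below numbered 53, without Birc2 against GM-BMM and Tnfrsf13c against M-BMM. Under every alternative run, 29 of the 53 were called, those of Map3k14, Malt1 and Ikbke and that of Birc2 against M-BMM included. Without the GM-CSF arrays numbered 1, 48 were called and 5 were not: Traf5 (0.63), Ikbkb (0.36) and Ikbkg (-0.43) in GM-BMDC against GM-BMM, Ltbr (-0.50) in GM-BMDC against M-BMM and Fbxw11 (-0.44) in GM-BMM against M-BMM. Cd40 against GM-BMM was then 0.98 and Traf6 against M-BMM 0.61, both still called. Ikbkb and Ikbkg lost their calls in 14 and 12 of the 18 alternatives, every fit without 1 array included, and Fbxw11 in 12. Without GM-BMDC replicate 1, Traf5, Cd40 and Tnip3 were no longer called against GM-BMM (0.86, 1.39 and 1.03). Without M-BMM replicate 1, and also without replicate 2, no call was left for Nfkbid, Traf5, Tnfrsf1b, N4bp1, Fbxw11, Cd83 and Marcks in GM-BMM against M-BMM, for Zc3h12a, Ikbkb and Ikbkg in GM-BMDC against GM-BMM, or for Traf6, Ltb, Ltbr, Tnip1, Tnip2, Tnip3, Otud7b and Usp18 in GM-BMDC against M-BMM.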

How the data were processed

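The deposited values are log2 RMA signals of 6 arrays, made by the authors with Affymetrix Expression Console 1.1 and RMA, per the submitters' processing notes; the genome build is not given in the sources used here. Of 35556 probe sets, 21789 had 1 gene in the array annotation, 1621 several and 12146 none; 999 genes had several probe sets, and the one with the highest mean was kept, leaving 19938 genes.

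R 4.3.3 and its package limma 3.58.1 compared the groups in a single model of the 6 arrays, two-sided, with 3 residual and 4.34 prior degrees of freedom, Benjamini-Hochberg adjustment over all genes at 0.05, no filter and no pseudocount, and checked on simulated data. The number of arrays limits the precision. Alternatives left out arrays, added a replicate block or a Y-linked covariate (Eif2s3y, Uty and Kdm5d), and changed the arrays fitted, variance model, filter, normalization and probe sets; the crossed block, and all alternatives for pathway genes that are no members, were added after seeing the data.

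The members and lists were chosen with earlier results of these data known. Named genes were the members, the other IkappaB genes, up to 3 called genes per pathway list, comparison and direction with the largest difference, the sort gate and sex-linked genes and the 5 genes most like the member with the widest range. Gene symbols came from the array annotation, and promoters from RefSeq (GRCm38.p6).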

Additional observations from a re-analysis of the deposited data

How the results depend on the processing

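Normalizing again by quantiles, a trended and robust variance, the filter on low values and the mean of probe sets changed no member's call or direction. Apart from the variance model, these could change little for the members. Each member had 1 probe set, none had a low group mean, and RMA had already equalised the arrays' distributions. Median centring ended the calls of Nfkb2 in GM-BMDC against GM-BMM and of Rela in GM-BMDC against M-BMM. It also called Nfkbiz lower in GM-BMDC than in GM-BMM. Testing all probe sets ended the same calls of Nfkb2 and Rela, and that of Nfkb2 in GM-BMDC against M-BMM. Leaving out 1 array at a time gave 2 to 4 members called in GM-BMDC minus GM-BMM, 1 to 2 in GM-BMM minus M-BMM and 2 to 6 in GM-BMDC minus M-BMM, and 1102 to 2055, 319 to 1347 and 1288 to 3412 of all genes. The fewest genes came without GM-BMDC replicate 1 in the first comparison and without an M-BMM array in the others. Of all genes, 1207 were called in GM-BMDC minus GM-BMM with only the groups compared, 2048 in GM-BMM minus M-BMM without the GM-CSF arrays numbered 2, and 2114 in GM-BMDC minus M-BMM with the Y-linked covariate. In GM-BMM minus M-BMM, 2 members were called without the GM-CSF arrays numbered 1 and 2 without those numbered 2. Directions turned only for differences that were not called: without the GM-CSF arrays numbered 1, Nfkbia was -0.32 in GM-BMDC minus GM-BMM (-0.10 to 0.34 leaving out 1 array), Relb 0.10 in GM-BMM minus M-BMM (-0.20 to 0.10) and Tnfaip3 -0.01 in GM-BMDC minus M-BMM (-0.01 to 0.52); without those numbered 2, Tnfaip3 was 0.30 in GM-BMDC minus GM-BMM (-0.41 to 0.13) and Nfkb2 -0.06 in GM-BMM minus M-BMM (-0.06 to 0.35). The cause of these changes was not tested. Deviations of arrays with the same replicate number correlated over all genes at 0.024, -0.132 and 0.026. With 2 arrays per population these values cannot decide whether the numbers pair the arrays. The GM-BMDC and GM-BMM arrays numbered 1 were alike in their low Y-linked genes, Eif2s3y at 3.94 and 3.66. With the replicate block, 3, 1 and 6 members and 1963, 1176 and 3060 genes were called in the same order of comparisons; Nfkb2 against GM-BMM (limma adjusted p = 0.0626) and Rela against M-BMM (0.084) were no longer called, and Nfkbiz against GM-BMM was (0.0497). A crossed pairing of the M-BMM numbers, chosen after seeing the data, called 2, 1 and 6 members and 2002, 1121 and 3155 genes. Precision is limited by 2 arrays per population.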
